A study of Hydra viridissima with 2 samples.

Results

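Long loci with many dispersed clusters of 5′ tags were described in the genome of the green hydra, Hydra viridissima. CAGE captures the capped 5′ end of an RNA, so each tag gives the base at which a captured RNA begins. Tags of both libraries were pooled, positions on a strand with at most 20 bases between them were joined into clusters, and clusters of at least 5 tags were kept. Neighbouring clusters of 1 strand were joined into a locus where no more than 1000 bases parted them. The loci described here had 12 or more clusters, none of which held 30% or more of the pooled tags. They number 80 of 17517 loci and hold 1193 of 54909 clusters.

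The study had 2 groups with 1 library each, both from whole polyps of clone 2. The aposymbiotic animals lacked the green algae that live inside the gut-lining cells of this species, and the symbiotic animals, called green in the labels, carried them. Both were kept at 24 °C on brine shrimp and collected 2 to 3 days after feeding, with about 200 polyps pooled per RNA sample and an RNA integrity number of 10. How the algae were removed is not given in the sources used here. The aposymbiotic library held 2138180 tags and the symbiotic library 3926689, or 1.84 times as many. A single tag was worth 0.468 CPM (counts per 1000000 tags of the library) in the former and 0.255 CPM in the latter. With no replicate of either group, every difference below is between these libraries, no p-value was computed, and intervals cover counting error only.

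In animals, RNA polymerase II starts transcription at core promoters, where starts can be focused on a base or spread over a stretch of DNA. A gene commonly has 1 main start region, and some have several that give transcripts with different first exons. Capped-end libraries also hold tags inside transcribed regions, away from the promoter. The loci here were grouped by distance alone. No gene models or genome sequence were used, so whether a locus is a single transcript, and which gene it belongs to, was not tested. The labelled tissue could not be checked against marker genes for the same reason.

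The 80 loci held 75449 pooled tags, with 25810 aposymbiotic and 49639 symbiotic tags, 1.21% and 1.26% of each library. A single locus on scaffold_155 supplied 34.5% of them. Most were of modest size. The median locus had 13 clusters, spanned 2430 bases and held 336.5 pooled tags, with quartiles of 206 and 570 tags. There were 34 loci with exactly 12 clusters, 17 with 13, 24 with 14 to 20, and 5 with more than 20. The span ran from 750 to 14417 bases, and the next longest after the highest value was 4793 bases. Only 10 loci exceeded 1000 pooled tags and 17 had fewer than 200.

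These members were chosen on pooled tag counts, so the number of clusters and the share of the strongest are descriptions of the choice. The strongest cluster held 14.6% to 29.99% of the tags, with a median of 23.7%, and the next strongest held a median of 17.2%. In 75 of the 80 loci the next strongest had at least 50% as many tags as the strongest. It took 2 to 5 clusters, with a median of 3, to reach 50% of the tags, and 5 to 15, with a median of 9, to reach 90%. Dispersed therefore means that a few clusters shared the tags, not that all clusters were alike.

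The limits of the rule cut through continuous distributions. Just inside the limit of 30% lay a locus on scaffold_9 from base 14429755 to 14433143 on the minus strand, whose strongest cluster held 1149 of 3831 tags (29.99%). Next came one on scaffold_12 from 11254254 to 11257685 on the plus strand with 380 of 1279 tags (29.7%), and one on scaffold_3 from 19444410 to 19448421 on the minus strand with 1646 of 5624 tags (29.3%). Just outside lay loci on scaffold_2 from 18240802 to 18244888, minus strand, with 755 of 2496 tags (30.2%), and on scaffold_1 from 28078699 to 28081122, plus strand, with 87 of 287 tags (30.3%). The third, on scaffold_1 from 25727638 to 25731652, plus strand, had 303 of 997 tags (30.4%). On the other limit, 54 loci had 11 clusters and no cluster at 30%. The number of members also follows the joining distance. With 10 bases between positions 586 loci met the rule, and with 50 bases 14 did.

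**Figure D1:**
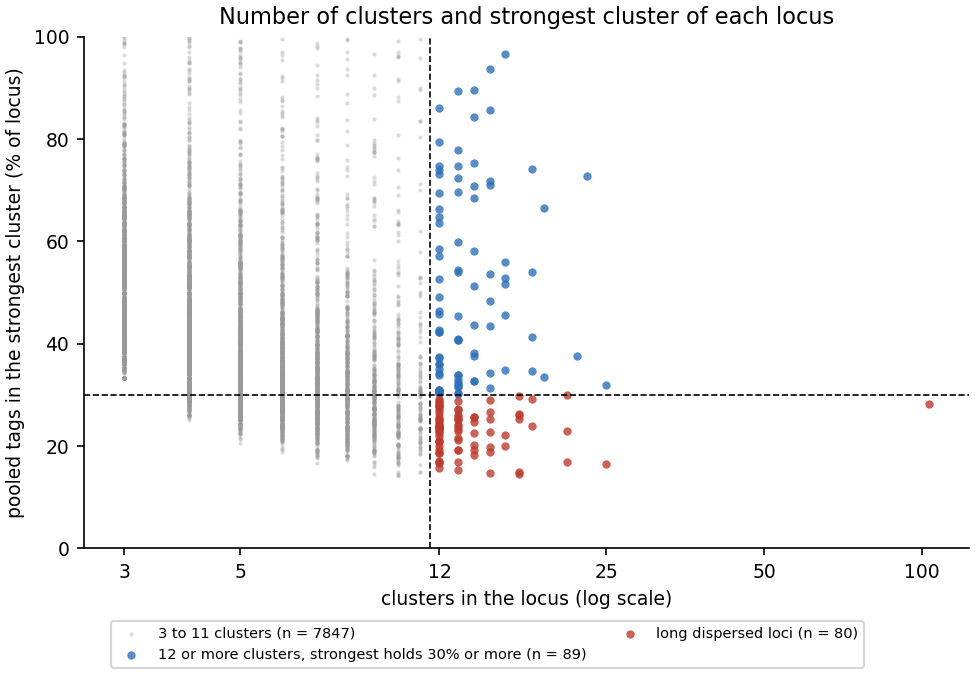
Each point is a locus of 3 or more clusters, with its number of clusters on a log axis and the percentage of its pooled tags in the strongest cluster. Dashed lines mark the limits of 12 clusters and 30%. The 80 long dispersed loci (red) lie below and to the right of both, beside 89 loci with as many clusters but a stronger leading cluster (blue), and the locus with 103 clusters stands alone.

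Members lay on 19 of the 110 scaffolds with tags. Scaffold_2 held 18, or 22.5%, against 11.4% of all loci and 18.3% of the 169 loci with 12 or more clusters. Scaffold_1, with 11.7% of all loci, held 4. Scaffold_4 held 9 members, and scaffolds 3, 6 and 9 held 7 each. On the minus strand there were 47 and on the plus strand 33, or 41.25%. The plus strand held 50.6% of the 89 loci with a stronger leading cluster. It held 50.8% of loci of 3 to 11 clusters and 50.4% of loci of 1 or 2. These shares were not tested. The nearest other locus on the same strand was a median of 6969 bases away, and for 32 loci it was within 5000 bases.

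Spacing within the loci was irregular and not distinct. The 1113 gaps between neighbouring clusters had a median of 77 bases and quartiles of 29 and 187, from the minimum of 21 set by the joining rule up to 980. In the 89 loci with as many clusters but a leading cluster of 30% or more the median gap was 71 bases, with quartiles of 29 and 164. In the 7847 loci of 3 to 11 clusters it was also 71, with quartiles of 32 and 183. Gaps under 50 bases made up 41.1%, 41.6% and 39.9% in these sets, and gaps over 500 bases 6.83%, 6.63% and 7.27%. No test was made of these differences. The gap follows the joining distance, with a median in the long dispersed loci of 30 bases when positions were joined at 10 bases and of 150 when joined at 50.

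The median gap of a single locus, mostly over few gaps, ran from 26.5 to 239 bases. Its widest gap had a median of 609 bases, with 31 loci having none of 500 bases or more. The tightest were on scaffold_6 from 7329239 to 7330034, minus strand, with no gap above 75 bases, and on scaffold_13 from 11087244 to 11088274, plus strand, with 17 clusters in 1031 bases and no gap above 102. The latter had 16.5 clusters per kb, against a median of 5.54. Clusters covered a median of 18.6% of the span. The exception was the locus on scaffold_14 from 9364307 to 9367505, plus strand, where 25 clusters covered 72.6% of 3199 bases. These examples, other than scaffold_6 and scaffold_14, were named after their values were seen.

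**Figure D2:**
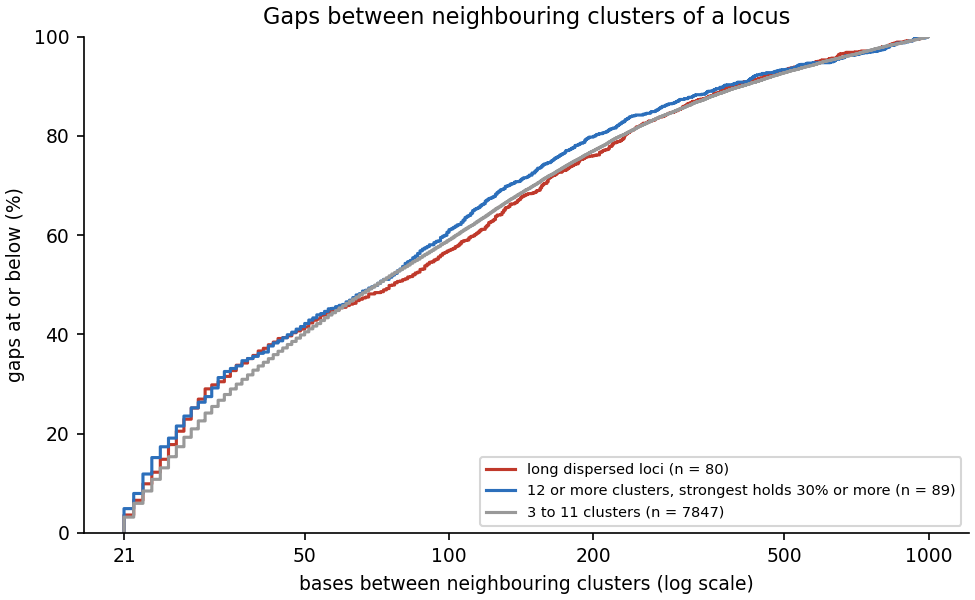
Cumulative percentage of gaps between neighbouring clusters of a locus against gap length on a log axis, for the long dispersed loci (red), loci of 12 or more clusters led by a stronger one (blue) and loci of 3 to 11 clusters (grey). The curves run close together, with medians of 77, 71 and 71 bases.

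The clusters themselves were narrow and mostly weak. The median member cluster was 27 bases wide and held 15 tags, and 31.2% held 5 to 9. In the loci led by a stronger cluster the median was 31 bases and 19 tags, and in loci of 3 to 11 clusters 23 bases and 11 tags. Clusters of 50 or more tags made up 18.8%, 31.8% and 10.7%. Across members there were 6.01 tags per tagged position, and 43.5% of those positions held a single tag. Per length, the loci had a median of 156 pooled tags per kb of span, from 30.3 to 1803. The 89 loci with a stronger leading cluster had a median of 643 per kb, and the loci of 3 to 11 clusters 116 per kb.

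Nearly all clusters were seen in both libraries, in the members as in other loci. Of the 1193 member clusters, 1150 (96.4%) had tags in both libraries, 41 in the symbiotic library alone and 2 in the aposymbiotic library alone. All 43 exceptions had fewer than 20 tags. The share in both was 95.4% (1179 of 1236) in loci led by a stronger cluster and 93.5% (37188 of 39771) in loci of 3 to 11 clusters. A high share is thus no trait of the members. Among clusters of 5 to 9 tags it was 90.3% in the members, 87.3% in loci led by a stronger cluster and 86.9% in loci of 3 to 11 clusters. Clusters of a locus are not independent, and differences between these shares were not tested. The symbiotic library was deeper, which at these counts cannot be told apart from presence in a single kind of animal. The strongest cluster of a locus was the same in both libraries in 52 loci and differed in 28, or 35%, beside 26.8% of all 4452 loci with 3 or more clusters and at least 20 tags in each library. It differed in 7 of the 89 loci led by a stronger cluster and in 577 of 919 loci of 3 to 11 clusters that had no cluster at 30%. The rule limits the lead of the strongest cluster, so nothing is read from the share in the members.

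Each locus was divided from 5′ to 3′ into 5 segments of equal length. The segment nearest the 5′ end held a median of 10.0% of the pooled tags of a locus, and the following segments held medians of 18.5%, 20.3%, 17.2% and 16.9%. In the 89 loci led by a stronger cluster the medians were 8.20%, 10.2%, 15.4%, 9.20% and 5.52%, also highest in the middle. In all 7847 loci of 3 to 11 clusters, with a median of 63 tags, they were 24%, 10.6%, 11.3%, 9.30% and 24.3%. Among the 4283 of these with at least 20 tags in each library, first-segment medians were 16.2% aposymbiotic and 18.2% symbiotic. Those of the last segment were 20% and 16.9%. All members had at least 20 tags in each library. In the long dispersed loci, which end held less depended on the division and on the joining of loci. With clusters divided by rank in place of length, the 5′ end had a median of 12.6% and the 3′ end 9.51%. With loci joined at 2000 bases these were 20.4% and 15.3%. Individual loci varied widely. The segment with the most tags was, from 5′ to 3′, the first in 13 loci, the next in 18, the middle in 22, the next in 17 and the last in 10. The cluster nearest the 5′ end held a median of 2.65% of the tags, and it was the strongest in 2 loci. The cluster nearest the 3′ end held a median of 3.40% and was the strongest in 0 of 80. The outermost clusters of a locus set its ends, so an end segment always holds tags, while a segment inside can hold none. How far the division shapes the shares at the ends was not tested.

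With the libraries taken apart, medians for the first segment were 9.55% aposymbiotic and 10.8% symbiotic, and for the last 18.2% and 14.6%. The share nearest the 5′ end was higher in the symbiotic library in 53 of 80 loci, 66.3%, beside 59.1% of all 4452 loci with 3 or more clusters and at least 20 tags in each library. The share nearest the 3′ end was lower in the symbiotic library in 52, or 65.0%, beside 62.9% of all such loci. The mean tag position, as a percentage of the span from the 5′ end, had a median of 54.2 aposymbiotic and 51.8 symbiotic. It lay nearer the 5′ end in the symbiotic library in 55 loci, 68.8%, beside a background of 66.8%. These shares lie near the background, so the shift towards the 5′ end is no result about the long dispersed loci.

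The shift was small in most. The median difference, symbiotic minus aposymbiotic, was -1.77 percentage points of the span, and in 53 loci it was under 5 points in either direction. It exceeded 10 points in 4. Summed over loci, the result for the 3′ end depends on 1 of them. With the scaffold_155 locus, the segment nearest the 3′ end held 30.4% of aposymbiotic tags (29.8 to 30.9) and 30.7% of symbiotic tags (30.3 to 31.1). Without it the shares were 18.8% (18.2 to 19.4) and 15.4% (15.1 to 15.8). The segment nearest the 5′ end held 9.38% of aposymbiotic and 10.1% of symbiotic tags with that locus, and 12.7% and 14.5% without it. In such sums the loci with most tags weigh most, and the intervals take tags as independent.

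**Figure D3:**
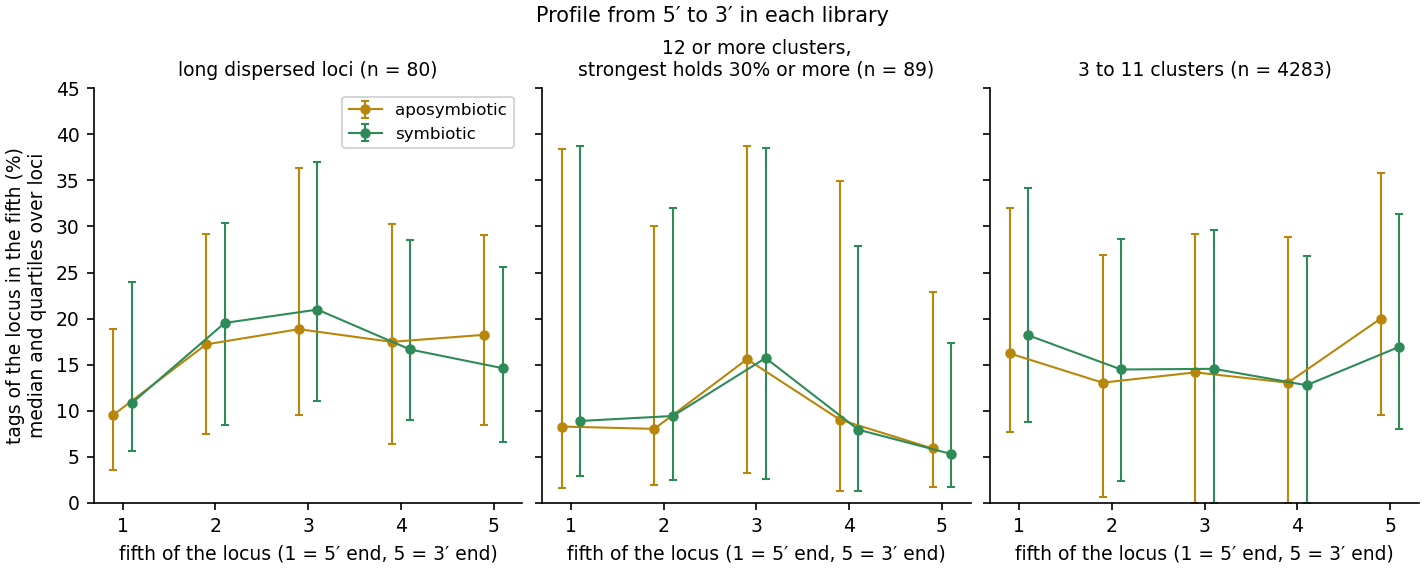
Percentage of a locus's tags in each of 5 equal segments from the 5′ to the 3′ end, in the aposymbiotic (gold) and symbiotic (green) library, as medians with quartiles over loci with at least 20 tags in each library. In the long dispersed loci the segment nearest the 5′ end has the lowest median in both libraries, 9.55% and 10.8%, and quartiles overlap throughout. This order belongs to the division by length. By rank of cluster the pooled median was 12.6% at the 5′ end and 9.51% at the 3′ end.

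The median level of the members was nearly the same in both libraries. All 80 had a mean of at least 10 CPM, and the level ran from 14.03 to 3918 CPM in the aposymbiotic library (median 56.4) and from 7.89 to 4486 CPM in the symbiotic library (median 57.0). The log2 ratio of symbiotic over aposymbiotic, on the scale of CPM + 1, had a median of -0.0032 and quartiles of -0.20 and 0.24. It was above 0 in 39 loci and below 0 in 41. Over all loci with a mean of at least 10 CPM the median was -0.0196, so a median near 0 is no trait of the members. On counting error alone, the interval of the fold lay above 1 in 19 loci and below 1 in 14, and included 1 in 47. Such intervals narrow as tags increase, and no like count over all loci is given here, so nothing is read from these counts. By a ratio of at least 2, 1 locus was higher in the symbiotic library and 4 were lower, or 1.25% and 5%. Over all 4516 loci with a mean of at least 10 CPM, 1.13% were higher and 2.24% were lower, and with so few members past the ratio the shares were not compared further. The SD of the log2 ratio was 0.56 over the 80 loci and 0.43 over 79 without the scaffold_6 locus. It was 0.28 in the loci led by a stronger cluster, whose median was 1500 tags. In loci of 206 to 570 pooled tags it was 0.48 for 40 members, 0.35 for 17 led by a stronger cluster and 0.42 for 773 loci of 3 to 11 clusters.

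**Figure D4:**
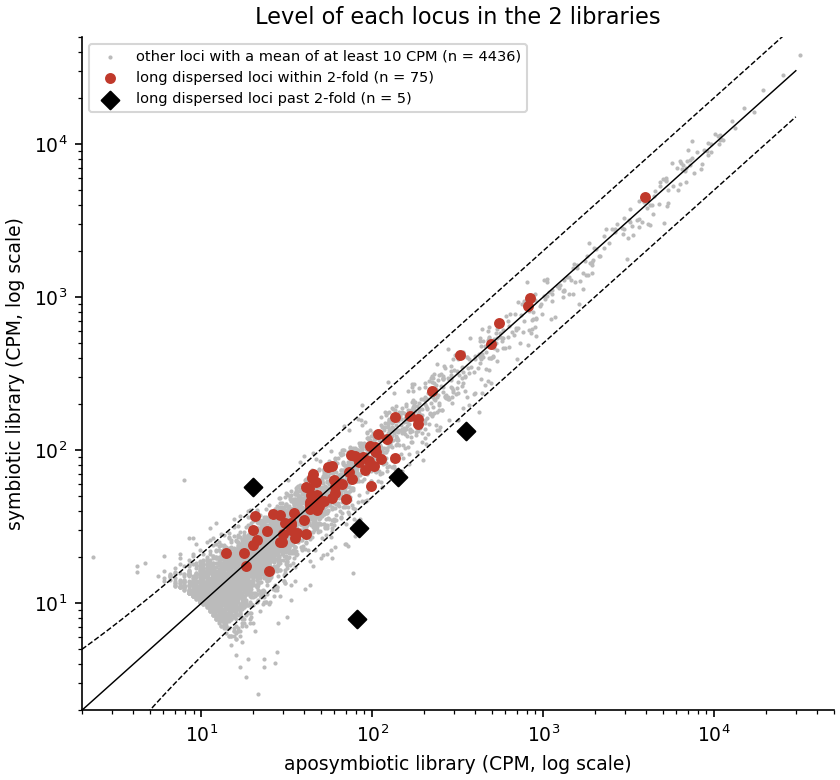
Level of each locus in the aposymbiotic (x) and symbiotic (y) library in CPM, both on log axes, with equality (solid line) and a ratio of 2 on the scale of CPM + 1 (dashed lines). Red points are the 75 long dispersed loci within the dashed lines, black diamonds the 5 outside them, of which 4 are lower in the symbiotic library, and grey points other loci with a mean of at least 10 CPM.

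The lowest ratio belonged to the locus on scaffold_6 from 7329239 to 7330034, minus strand, with 12 clusters in 796 bases. It had 174 aposymbiotic and 31 symbiotic tags, or 81.4 and 7.89 CPM, a level 10.3-fold lower in the symbiotic library (7.004 to 15.6). All 12 clusters were lower there, so the difference did not rest on a single start site. The strongest, from 7329385 to 7329436, had 53 aposymbiotic and 4 symbiotic tags, and without it the locus had 121 and 27. From 5′ to 3′ the segments held 8.29%, 18.5%, 17.6%, 27.8% and 27.8% of its tags.

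The locus on scaffold_3 from 6886918 to 6888934, plus strand, had 179 aposymbiotic and 121 symbiotic tags, or 83.7 and 30.8 CPM, 2.72-fold lower (2.15 to 3.45). Of its 13 clusters 12 were lower. They formed a 5′ run of 8 clusters and a 3′ run of 5, parted by a gap of 823 bases, with 51.7% of the tags in the first segment and 31.0% in the last. The only cluster that was not lower lay in the 5′ run.

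On scaffold_12 the locus from 11254254 to 11257685, plus strand, had 756 and 523 tags, or 354 and 133 CPM, 2.65-fold lower (2.37 to 2.97). It was lower in 16 of 17 clusters. A pair of neighbouring clusters carried most of it: one from 11256554 to 11256690 had 205 and 162 tags, and one from 11256719 to 11256854 had 225 and 155. In this locus 62.0% of the tags lay in the fourth segment from the 5′ end and 1.80% in the first. On scaffold_16, from 6230773 to 6232206, minus strand, there were 302 and 264 tags, or 141 and 67.2 CPM, 2.10-fold lower (1.78 to 2.49), and all 12 clusters were lower. The interval of this last fold reaches below 2 on counting error alone.

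In the other direction, the locus on scaffold_4 from 5792486 to 5794294, minus strand, had 43 aposymbiotic and 224 symbiotic tags, or 20.1 and 57.0 CPM, 2.84-fold higher (2.04 to 4.03). All 12 clusters were higher, and 2 of them had no aposymbiotic tag. Its strongest cluster, from 5793656 to 5793661, spanned 6 bases and had 10 and 35 tags. The next in order did not reach a ratio of 2. On scaffold_4 from 12040538 to 12042906, minus strand, 44 and 146 tags gave a 1.81-fold higher level (1.28 to 2.59). On scaffold_2 from 22006123 to 22008866, plus strand, 96 and 274 tags gave 1.55-fold (1.23 to 1.98). On scaffold_14 from 7141091 to 7144113, minus strand, 30 and 84 tags gave 1.52-fold (0.994 to 2.40), an interval that includes equal levels.

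The locus on scaffold_155 from 1781 to 16197 on the minus strand stood apart in clusters, span and tags. It had 8377 aposymbiotic and 17616 symbiotic tags, or 3918 and 4486 CPM, 1.15-fold higher (1.12 to 1.18), and 1803 pooled tags per kb. Its 5′ end is the last base of that scaffold with a tag, and the locus held 99.4% of all tags on the scaffold, of which 26139 were on the minus and 7 on the plus strand. The 103 clusters were far from equal. Clusters 46 to 48 from the 5′ end, between 9366 and 9851, held 37.7% of the locus's aposymbiotic tags and 32.9% of its symbiotic ones. Clusters 99 to 103, between 1781 and 3198, held 53.8% and 57.3%. The other 95 clusters, with a median of 14 tags, held 8.51% and 9.75%.

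These blocks, set after the values were seen, did not have the same ratio. The block in the middle had 1478 aposymbiotic and 1477 symbiotic CPM, a ratio of 0.9996 (0.957 to 1.04). The block at the 3′ end had 2106 and 2571 CPM, 1.22-fold higher (1.18 to 1.26), and the remaining clusters had 333 and 438 CPM, 1.31-fold higher (1.20 to 1.43). The strongest cluster of the locus, from 2105 to 2755, was 651 bases wide with 2194 and 5141 tags. No file used here identifies the sequence of scaffold_155. Whether it is nuclear, organellar or repeated was not tested, nor whether its tags mark RNA polymerase II starts, and this locus holds 34.5% of the member tags. How reads that map to several places were counted is not given in the sources used here.

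The other loci with most tags were close to equal in level. On scaffold_3 from 19444410 to 19448421, minus strand, 18 clusters held 1778 and 3846 tags, or 832 and 979 CPM, 1.18-fold higher (1.11 to 1.25), with 71.5% of the tags in the middle segment. On scaffold_1 from 28302772 to 28306949, minus strand, 21 clusters held 1738 and 3450 tags, or 813 and 879 CPM, 1.08-fold higher (1.02 to 1.15). Its first 12 clusters had at most 26 tags each, and 7 clusters between 28303076 and 28305124, with 170 to 1189 tags each, followed at intervals along the last part of the locus. On scaffold_9 from 14429755 to 14433143, minus strand, 21 clusters held 1174 and 2657 tags, 1.23-fold higher (1.15 to 1.32), and here 54.5% lay in the segment nearest the 5′ end. On scaffold_8 from 10464007 to 10467019, minus strand, 13 clusters held 1056 and 1934 tags, or 494 and 493 CPM, a ratio of 0.997 (0.925 to 1.08). The leading segment thus differed from locus to locus even among those with most tags.

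Of the other loci with most clusters, 1 was near the median in tags. On scaffold_4 from 9588639 to 9592447, minus strand, 21 clusters held 130 and 224 tags, or 60.8 and 57.0 CPM, with 60 pooled tags in the strongest, a ratio of 0.938 (0.753 to 1.17) with 52.3% of the tags in the last segment. The 25 clusters on scaffold_14 from 9364307 to 9367505 were among those with over 1000 pooled tags and held 696 and 1634 tags, 1.28-fold higher (1.17 to 1.40), and no cluster there exceeded 16.6%. Their tags were spread along the whole locus, with 32.2%, 20.5%, 19.1%, 10.6% and 17.5% from the 5′ to the 3′ segment.

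Of the long loci not yet named, those on scaffold_2 from 19314845 to 19319637 and from 7932984 to 7937054, both on the plus strand, spanned 4793 and 4071 bases. The former had 209 and 229 tags, 1.68-fold lower (1.38 to 2.03), and the latter 394 and 631 tags, 1.15-fold lower (1.01 to 1.30). On scaffold_1 from 8389534 to 8393547, minus strand, 4014 bases held 93 and 172 tags, a ratio of 1.01 (0.778 to 1.31). Long spans thus came with ratios on both sides of 1.

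**Figure D5:**
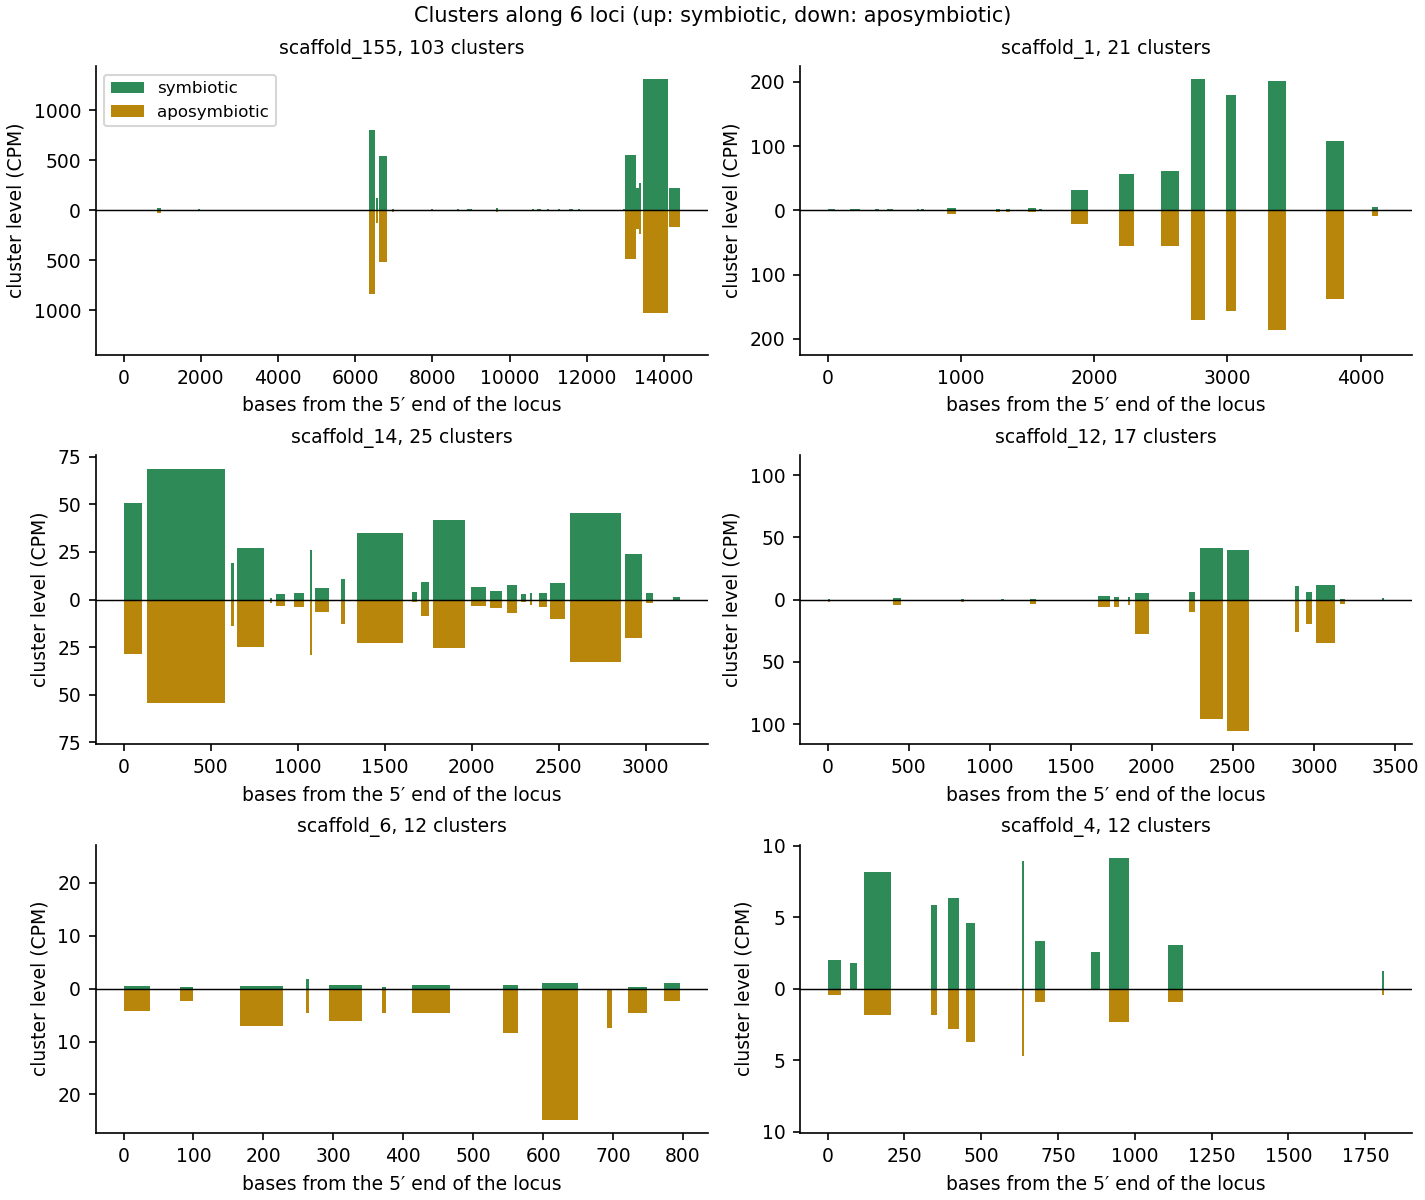
Level of each cluster in CPM along 6 loci, by distance in bases from the 5′ end of the locus, with the symbiotic library upwards (green) and the aposymbiotic downwards (gold). Bars are as wide as the cluster, with narrow ones widened to 0.4% of the locus, and their height is the CPM of the whole cluster. On scaffold_155 the tags sit in separate blocks, on scaffold_6 all 12 clusters are lower in the symbiotic library, and on scaffold_4 all 12 are higher.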

How the data were processed

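Per the labels' protocols, caps were removed enzymatically, a biotinylated dinucleotide was ligated to the freed ends, and cDNA was primed at random. Reads were handled with STAR 2.7.11b and fastp 1.1.0, per the submitters' processing notes. For the genome build and for duplicates and multiply mapped reads, settings were not given in the sources used here. The values deposited by the authors are raw tag counts, with no normalization, per base and strand and per cluster. All values here were computed from the single-base counts. Joining positions with at most 20 bases between them, without regard to strand, rebuilt all 23776 and 39309 deposited clusters, which differ from the stranded clusters used here.

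CPM is the number of tags per 1000000 tags of the library. Ratios use CPM + 1, and printed folds use CPM without the added 1. Intervals are at 95%, exact binomial on the pair of tag counts for folds and Clopper-Pearson for shares. They cover counting error only, because each group had 1 library. They also take each tag as a separate molecule, so they are too narrow where reads were copied by amplification. A count of 0 allows up to 3 tags, or 1.40 CPM aposymbiotic and 0.764 CPM symbiotic. Mean tag positions needed at least 20 tags in each library. Loci named are the 5 with most tags, clusters or span, the 4 with the highest and the lowest ratio and the 3 on each side of the 30% limit. The members and lists were chosen with earlier results of these data known. Bases are counted from 1. The calculations were tested on simulated data and used scipy 1.17.1, pandas 2.3.3, numpy 2.4.6 and matplotlib 3.10.9 in Python 3.11.15, with edgeR 4.0.16 in R 4.3.3 for an alternative scaling.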

Additional observations from a re-analysis of the deposited data

Results flagged for a closer look

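Tags on the strand opposite to a locus were outside the comparisons. Over all 80 spans there were 4 aposymbiotic and 13 symbiotic ones, 0.0225% of the tags there, and 70 loci had none. A single locus had more than 3 such tags over both libraries, a limit for listing and not a test of opposite-strand signal. It lies on scaffold_2 from 19969912 to 19971567, minus strand, with 88 and 112 tags on its own strand, and had 7 plus-strand tags within its span, 1 aposymbiotic and 6 symbiotic.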

How the results depend on the processing

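Of 86 values under 16 alternatives, 50 stayed within 1.5 times the count reported or within the order-statistic interval of the median, and 36 moved, all but 2 of these where the rule itself was changed. The number of loci, their median span in bases, their median gap in bases and the number with the mean tag position nearer the 5′ end in the symbiotic library were 586, 1411.5, 30 and 442 with clusters joined at 10 bases, 14, 4351, 150 and 9 at 50 bases, 12, 2998, 89 and 10 with clusters of at least 10 tags, 40, 1833, 62.5 and 26 with loci joined at 500 bases, 175, 3787, 89 and 123 (of 174 tested) at 2000 bases, and 5, 3809, 62.5 and 3 with at least 20 clusters. With the strongest cluster under 20% there were 21 loci, 12 of them nearer the 5′ end, and under 50% 129 and 92. The number nearer the 5′ end was compared as a count and not as a share, so it moves with the number of loci. The median share nearest the 5′ end was 7.03% with clusters of at least 10 tags, 20.4% with loci joined at 2000 bases and 5.08% with at least 20 clusters, where the share nearest the 3′ end was 37.0%. The latter was 9.51% by rank of cluster. The median log2 ratio was 0.11 with clusters of at least 10 tags, 0.20 with at least 20 clusters, and 0.13 with positions capped at 71 aposymbiotic and 80 symbiotic tags. Capping also lowered the library totals used for scaling, and the median shares nearest the 5′ and 3′ ends stayed at 10.0% and 16.9%. How much of the 0.13 came from those totals was not tested. The 1 higher and 4 lower loci were the count under each scaling, constant and filter tried. Leaving out the scaffold_155 locus, chosen after its values were seen, left every median and count within those limits. No library could be left out, and no test with replicates was possible. No paired analysis was possible because only 1 library stands for each kind of animal. Other causes were not tested. Loci near 100 tags are limited by depth.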

Other observations

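Each library alone, under the same rule, gave 19 aposymbiotic and 41 symbiotic loci, and these overlapped 11 and 31 of the 80 pooled loci on the same strand. In all, the libraries alone gave 9233 and 13862 loci, of which 51 and 91 had 12 or more clusters. Each has fewer tags than the pool against the same limit of 5 per cluster. Depth and kind of animal differ together between the libraries, so they cannot be told apart in these counts. No like overlap over all loci is given here, and nothing is read from the overlap. Within the 80 spans a further 1187 tags, 1.55%, lay on the same strand but outside any cluster of at least 5 tags. The largest shift of the mean tag position was on scaffold_14 from 7141091 to 7144113, from 22.4 to 43.0 percent of the span, on 30 aposymbiotic and 84 symbiotic tags.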
